A study of Mus musculus with 6 samples.

Results

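The cytosolic heat shock chaperones described here are 10 genes, taken from the deposited expression table by their gene names, of 55414 genes in all: Hspa1a, Hspa1b, Dnajb1, Dnaja1, Hsph1, Hsp90aa1, Hsp90ab1, Hspa8, Bag3 and Hsf1. All 10 were found, each under 1 identifier, and all 10 passed the filter on low counts, which left 15527 genes to be tested. They were measured by RNA sequencing in liver natural killer (NK) cells, the cytotoxic innate lymphocytes, of mice with the wild-type genotype. The control group was 3 libraries from mice given phosphate-buffered saline (PBS), and the other group 3 libraries from animals treated with the antidiabetic drug metformin at 200 mg per kg for 3 days, all labelled day 3. Strain, age, sex, the route of dosing, the way the NK cells were isolated and whether animals were pooled are not given in the sources used here. Since the labels do not tie the libraries to separate animals, p-values here reflect the spread between samples, and that spread may be technical.

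Heat shock chaperones are proteins that bind unfolded stretches of other proteins, keep them from clumping and help them fold. HSP70 proteins do this in cycles of ATP hydrolysis that are started by J proteins (HSP40) and ended by nucleotide exchange factors, and HSP90 proteins take over clients such as kinases and steroid receptors. The transcription factor HSF1 is held inactive by chaperones, is released when misfolded proteins occupy them, and then binds heat shock elements, which are repeats of the letters GAA and their complement in alternating orientation. Lymphocytes carry the constitutive forms at high levels, while the stress-inducible HSP70 genes are low until cells meet heat, oxidants or other protein damage. Handling and isolation of cells can also induce these genes.

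The promoters of the pair of inducible HSP70 genes are shown first because these genes had the largest differences between the groups among the 10 and lie close together on chromosome 17. The sequences are the 250 bases before the start site from RefSeq on GRCm38.p6, written 5′ to 3′ on the minus strand, where both genes are read. Capitals mark the heat shock element of a pair of units, GAANNTTC, which reads the same on both strands.
Hspa1b (chr17:34959239-34959488): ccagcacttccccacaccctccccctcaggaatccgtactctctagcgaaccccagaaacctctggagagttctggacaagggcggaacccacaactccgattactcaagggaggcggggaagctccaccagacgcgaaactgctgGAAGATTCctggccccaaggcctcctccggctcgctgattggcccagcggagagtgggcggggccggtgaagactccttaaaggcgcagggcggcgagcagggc
Hspa1a (chr17:34972157-34972406): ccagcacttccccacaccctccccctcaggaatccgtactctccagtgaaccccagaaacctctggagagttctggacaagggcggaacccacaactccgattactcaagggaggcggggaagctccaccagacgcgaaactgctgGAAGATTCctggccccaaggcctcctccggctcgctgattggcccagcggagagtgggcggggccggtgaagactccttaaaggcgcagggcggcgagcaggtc
Over these 250 bases the promoters were 98.8% identical. From Hspa1b to Hspa1a the 3 substitutions were T44C, C47T and G249T, with positions counted from 1 at the 5′ end of the stretch. The element GAAGATTC began at position -104 from the start site in both.

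RefSeq windows of 300 bases (250 before to 50 after a start site) were at hand for 6 of the 10 members, in 10 windows. GAANNTTC or TTCNNGAA, each its own reverse complement, was found in at least 1 window of 5 of these 6 genes, against 17.0% of all 27025 genes with such a window. The members were picked as genes that HSF1 drives, so a share above that of all genes follows from the choice. It is not a result of these data. Hspa1a and Hspa1b, with nearly identical promoters, are 2 of the 5, and genes with more than 1 window had more bases to match. Dnaja1, the J protein, held 1 element at -124 from its upstream start, and Hsph1, the HSP110 exchange factor, held the form of 3 units (GAANNTTCNNGAA or its reverse complement TTCNNGAANNTTC, which overlaps both short forms) at 15 and 36 bases past its 2 starts, and apart from it TTCTCGAA at -54 and -33 from the same starts. That longer form was in 0.662% of all genes, with the same limit from the choice of members. Bag3, a co-chaperone, held GAAGTTTC at 42 bases past its start. The 30-base stretches below show the elements of Dnaja1 and Hsph1 in capitals.
Dnaja1 (chr4:40722333-40722362, plus strand): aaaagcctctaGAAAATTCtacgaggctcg
Hsph1 (chr5:149636282-149636311, minus strand): aatgctgcagaTTCTGGAAAGTTCtcctca
Hsph1 upstream (chr5:149636351-149636380, minus strand): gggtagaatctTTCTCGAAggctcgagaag
In the 2 windows of Dnajb1, another J protein, these letters were not found. A match describes the sequence only and is not a measured binding site.

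The libraries held 22152167 to 30161214 estimated reads, and the 10 members together took 0.427% to 0.671% of them. The label of the cells was checked with defining markers: Ncr1, the NK receptor NKp46, lay between 1314 and 1591 CPM (counts relative to each library's TMM-scaled size) and Klrb1c, the receptor NK1.1, between 1720 and 2268 CPM, while the NK factor Eomes was at 312 to 342 CPM with PBS and 208 to 216 CPM with metformin. The T cell genes Cd3e and Cd3g lay between 6.92 and 62.2 CPM and between 283 and 688 CPM. Summed over 8 markers of liver type 1 innate lymphoid cells, the levels were 907 to 1024 CPM with PBS and 1435 to 1506 CPM with metformin. Over 14 T cell markers they were 910 to 1058 CPM and 1445 to 1708 CPM. At an unadjusted p under 0.05 by edgeR, all 8 innate lymphoid markers were higher. Of the T cell markers 6 were higher and 1 lower at that threshold, against 5.29% and 5.08% of all genes. Cd3g, Trbc1 and Trbc2 made up most of the T cell sum, at 688, 479 and 310 CPM of 1708 CPM in metformin 3. The T cell markers did not all move together: 12 of 14 had a log2 fold change above 0. Lef1 was lower in every metformin library (35.6 to 45.3 against 48.2 to 56.0 CPM). In metformin 3 Trac, at 21.4 CPM, lay inside the PBS range of 8.43 to 32.8 CPM. The sum over 8 monocyte markers was lower without overlap, at 1687 to 1832 CPM with PBS and 1402 to 1501 CPM with metformin. So was the sum over 7 basophil and mast cell markers (19.2 to 27.3 and 13.1 to 18.5 CPM). Of the 8 monocyte markers 4 had a log2 fold change above 0. By edgeR 3 were lower and 0 higher at an unadjusted p under 0.05, against 5.08% and 5.29% of all genes. Itgam and Ccr2 made up most of the monocyte sum with PBS. Both were lower with metformin (717 to 759 against 289 to 598 CPM, and 449 to 475 against 329 to 332 CPM). Lyz2 overlapped (187 to 322 and 189 to 550 CPM), as did Ly6c2 (213 to 248 and 242 to 263 CPM). The 9 B and plasma cell markers all had a log2 fold change above 0, against 50.9% of all genes, with sums that overlapped (800 to 1707 and 1260 to 3667 CPM). None of these markers was at 0 in all libraries. Of 9 Kupffer cell and macrophage markers tested 6 were higher and 1 lower at an unadjusted p under 0.05 by edgeR, against 5.29% and 5.08% of all genes. The sum over all 10 such markers was 116 CPM in metformin 3 and 34.5 to 58.3 CPM in the other libraries. Metformin 3 also stood apart by its mitochondrial reads (0.720% against 0.429% to 0.515%) and its 18 hepatocyte markers (775 CPM against 270 to 417 CPM). The part of these differences in the values below was not tested. In bulk samples fewer cells of a type and less RNA per cell cannot be told apart.

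Relative to PBS, the inducible chaperone genes Hspa1b, Hspa1a and Dnajb1 were lower in every metformin library than in every control, by 2.94, 2.52 and 1.66 times. Other members that heat shock induces overlapped between the groups: Bag3 was lower by 1.32 times, Hsph1 by 1.25 times and Hsp90aa1 by 1.15 times. Dnaja1 was lower by 1.35 times, also with overlap. Of the abundant constitutive genes, Hspa8 was 1.26 times lower and Hsp90ab1 1.13 times higher, both with overlap. Hsf1, the regulator, was 1.14 times higher. By edgeR's quasi-likelihood test 0 of the 10 passed an adjusted p of 0.05 in either direction, as did 0% of all genes tested. At an unadjusted p under 0.05 edgeR gave 4 of the 10 lower and 0 higher, against 5.08% of all genes lower and 5.29% higher. DESeq2 called 3 of the 10 lower (Hspa1a, Hspa1b and Dnajb1), where it called 0.979% of all genes lower. The groups did not overlap, with metformin below PBS, in 3 of the 10, against 9.63% of all genes. The log2 fold change was below 0 in 8 of the 10, against 49.1% of all genes, and -1 or lower in 2 of the 10, against 2.09%. Those 2, Hspa1a and Hspa1b, share reads and are not independent of each other in any of these counts. The members' median log2 fold change was -0.37, against 0.01 over all genes.

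**Figure D1:**
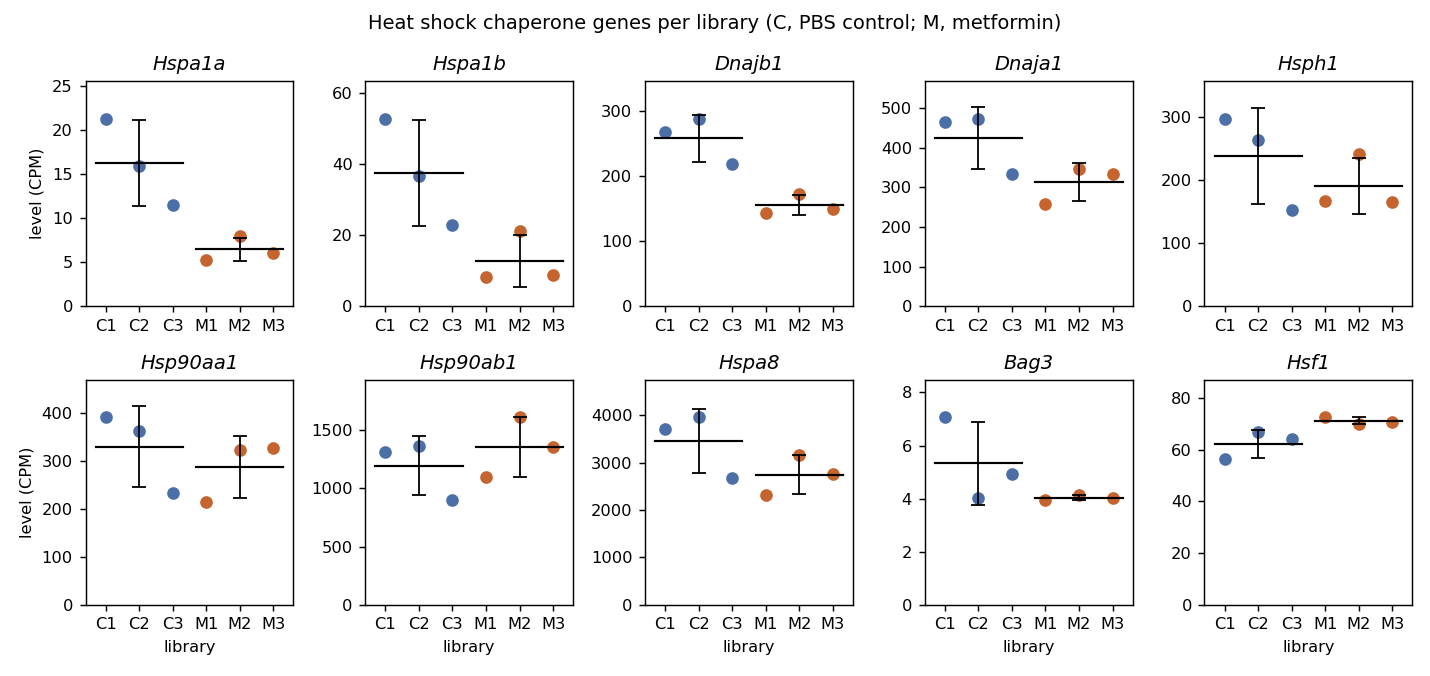
Level of each of the 10 genes in CPM (y axis, from 0) in each library (x axis; C1 to C3 are PBS controls, M1 to M3 metformin); points are libraries, long bars group means and short bars SD (n = 3). Hspa1a, Hspa1b and Dnajb1 lie lower in all 3 metformin libraries than in all 3 controls, and the other 7 genes do not.

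Hspa1b (ENSMUSG00000090877.4, chromosome 17, 35175412 to 35178214 in the deposited table's coordinates) encodes the stress-inducible HSP70 of the cytosol. Its level was 52.7, 36.7 and 22.9 CPM in PBS libraries 1, 2 and 3, against 8.32, 21.1 and 8.72 CPM in metformin libraries 1, 2 and 3. The groups did not overlap, although metformin 2 was only just under PBS 3, and the spread inside each group was wide, with the highest library 2.30 times the lowest with PBS and 2.54 times with metformin. The means were 37.4 ± 14.9 CPM and 12.7 ± 7.27 CPM (SD, n = 3 each), and edgeR's log2 fold change was -1.56 (SE 0.42, 95% interval -2.52 to -0.59; adjusted p = 0.312 over all genes). The value was -2.14 without metformin 2 and -1.24 without PBS 1.

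Hspa1a (ENSMUSG00000091971.4, chromosome 17, 35188166 to 35191132) encodes a nearly identical HSP70 protein. It was at 21.3, 16.0 and 11.5 CPM in PBS libraries 1, 2 and 3, against 5.30, 7.93 and 6.09 CPM in metformin libraries 1, 2 and 3. PBS 1 was again the highest control and metformin 2 the highest of its group, and the groups did not overlap. The means of 16.3 ± 4.91 and 6.44 ± 1.35 CPM (SD, n = 3 each) differed by -1.34 on the log2 scale (SE 0.27, 95% interval -1.96 to -0.71; edgeR adjusted p = 0.232).

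These genes share reads, so their split between Hspa1a and Hspa1b is uncertain. Of the 50-base stretches of the Hspa1a transcript 58.8% were found unchanged in Hspa1b, and 62.3% the other way (GENCODE M21). None of the 50-base stretches of Hspa1a was found in Hspa8, and none of Hsp90aa1 in Hsp90ab1. Added together before the fit, the counts of the pair were 74.0, 52.6 and 34.4 CPM with PBS and 13.6, 29.0 and 14.8 CPM with metformin. The sum was 2.80 times lower with metformin, which is -1.49 on the log2 scale (SE 0.35; adjusted p = 0.276 by edgeR and 0.00114 by DESeq2). The fold change of the sum lay between those of the genes counted apart. Per length, in TPM (the authors' values scaled by transcript length), Hspa1b was 2.58 ± 0.256 times Hspa1a with PBS and 2.17 ± 0.777 times with metformin (SD, n = 3 each; two-sided exact permutation p = 0.4).

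Dnajb1 (ENSMUSG00000005483.11, chromosome 8, 84334822 to 84339282) encodes the inducible HSP40 that delivers substrates to HSP70 and starts its ATP cycle. It was at 267, 288 and 219 CPM in PBS libraries 1, 2 and 3, against 144, 173 and 149 CPM in metformin libraries 1, 2 and 3. All metformin libraries were lower than all controls, and replicates of a group lay closer together than for the HSP70 pair. The means were 258 ± 35.7 and 155 ± 15.5 CPM (SD, n = 3 each), and the log2 fold change was -0.73 (SE 0.13, 95% interval -1.03 to -0.43). Dnajb1 had the smallest p of the 10 members and ranked 35 among all genes tested (edgeR unadjusted p = 0.000474, adjusted p = 0.196; DESeq2 adjusted p = 9e-05). Its deposited counts were whole numbers in every library, as were those of Hsph1, Bag3 and Hsf1, so no reads shared with other genes show in these 4. The log2 fold change lay between -0.84 and -0.65 over 18 other settings.

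Dnaja1 (ENSMUSG00000028410.14, chromosome 4, 40722150 to 40737149) encodes a J protein of another class, which also works with HSP70. It was at 466, 474 and 334 CPM with PBS and at 259, 346 and 334 CPM with metformin, in the order of the replicate numbers. PBS 1 and 2 were above every other library, while PBS 3 lay among the metformin libraries. The means of 425 ± 78.8 and 313 ± 47.2 CPM (SD, n = 3 each) differed by -0.44 on the log2 scale (SE 0.17, 95% interval -0.82 to -0.05; edgeR unadjusted p = 0.0301, adjusted p = 0.455). With the trend on gene length removed the value was -0.29. Over 608 bases the gene overlaps Smu1 on the other strand, which held 4613 to 6506 reads, and without a stated use of strand the reads of the overlap cannot be told apart.

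Hspa8 (ENSMUSG00000015656.18, chromosome 9, 40712280 to 40721383) encodes HSC70, the constitutive HSP70 that folds new proteins and strips clathrin from vesicles. It was the most abundant member, at 3720, 3960 and 2686 CPM with PBS and 2325, 3165 and 2761 CPM with metformin. PBS 3 was below metformin 2 and 3, so the groups overlapped. The log2 fold change was -0.33 (SE 0.17, 95% interval -0.71 to 0.06; edgeR adjusted p = 0.528), and -0.49 without PBS 3. Per length Hspa8 made up 58.9 ± 1.02% of the summed TPM of the 10 members with PBS and 53.8 ± 1.14% with metformin (SD, n = 3 each). The 3 shares with metformin were all lower than the 3 with PBS (exact permutation p = 0.1, two-sided, which is the smallest possible with 3 libraries a group, and 0.171 adjusted over 12 ratios and sums). The share was computed after values were seen, which the adjustment does not cover.

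Hsph1 (ENSMUSG00000029657.16, chromosome 5, 149537752 to 149559841) encodes HSP110, the exchange factor that frees ADP from HSP70. It was at 298, 264 and 154 CPM with PBS and 167, 242 and 165 CPM with metformin. PBS 3 was the lowest library of all and metformin 2 was close to PBS 2, so the groups overlapped widely (log2 fold change -0.32, SE 0.25, 95% interval -0.90 to 0.26; edgeR adjusted p = 0.669). The value moved from -0.56 without PBS 3 to -0.14 without PBS 1.
Bag3 (ENSMUSG00000030847.9, chromosome 7, 128125340 to 128148705), an exchange factor that steers HSP70 clients to autophagy, was the lowest member with 90 to 192 reads per library. It was at 7.07, 4.02 and 4.91 CPM with PBS and 3.94, 4.13 and 4.03 CPM with metformin. PBS 1 and PBS 3 were above every metformin library, and PBS 2 was not (log2 fold change -0.40, SE 0.28, 95% interval -1.04 to 0.24; edgeR adjusted p = 0.634). Without PBS 1 the value was -0.16.

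Both HSP90 genes overlapped between the groups. Hsp90aa1 (ENSMUSG00000021270.14, chromosome 12, 110657039 to 110669162), the inducible HSP90 alpha, was at 391, 363 and 233 CPM with PBS and 213, 322 and 326 CPM with metformin. PBS 3 was below metformin 2 and 3 (log2 fold change -0.20, SE 0.23, 95% interval -0.72 to 0.32; edgeR adjusted p = 0.769). The value moved from -0.40 without PBS 3 to -0.03 without metformin 1. Hsp90ab1 (ENSMUSG00000023944.15, chromosome 17, 45878701 to 45884197), the constitutive HSP90 beta, was at 1314, 1367 and 904 CPM with PBS and 1096, 1611 and 1354 CPM with metformin. The groups overlapped, and metformin 2 held the highest level (log2 fold change 0.18, SE 0.19, 95% interval -0.26 to 0.62; edgeR adjusted p = 0.746). The value moved from 0.01 without PBS 3 to 0.31 without metformin 1. Summed per length, the pair was at 1113 ± 226 TPM with PBS and 1131 ± 229 TPM with metformin (SD, n = 3 each; two-sided exact permutation p = 0.9).

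Hsf1 (ENSMUSG00000022556.12, chromosome 15, 76361622 to 76386113), the transcription factor of the heat shock response, was at 56.3, 66.7 and 64.0 CPM with PBS and 72.6, 70.0 and 70.9 CPM with metformin. All metformin libraries were above all controls, as for 9.49% of all genes, by a small margin over PBS 2. The log2 fold change was 0.19 (SE 0.10, 95% interval -0.04 to 0.42; edgeR adjusted p = 0.536), and 0.11 without PBS 1. On the deposited TPM the groups overlapped, at 42.8 to 53.3 with PBS and 48.4 to 51.9 with metformin. HSF1 is controlled mainly as a protein, by binding and phosphorylation, which the level of its mRNA does not measure.

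**Figure D2:**
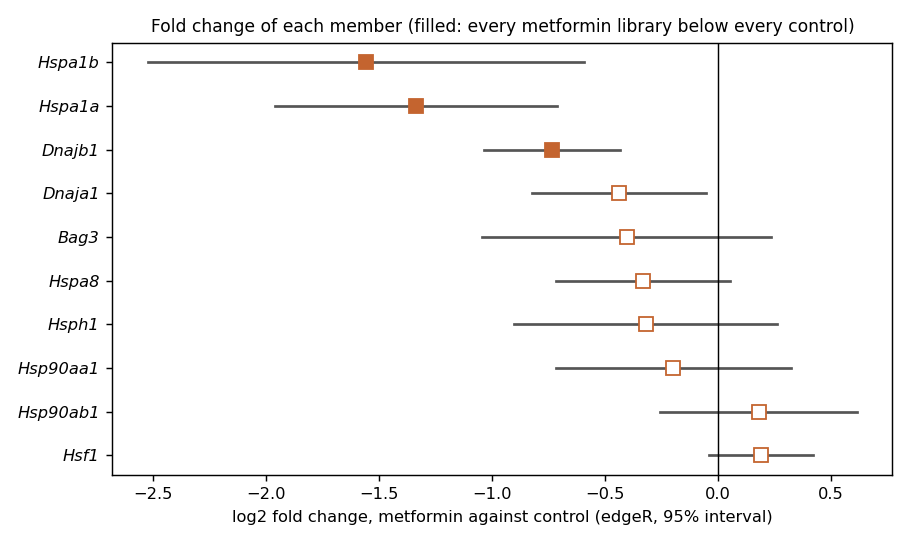
Log2 fold change of each gene, metformin against PBS (x axis), with its 95% interval from edgeR (lines); squares are filled where every metformin library lay below every control. The intervals of Hspa1b, Hspa1a, Dnajb1 and Dnaja1 lie below 0 before adjustment, and 0 of the 10 genes passed after adjustment over all genes.

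Several members were high or low in the same libraries. PBS 1 or PBS 2 held the highest level of 8 of the 10 genes, and metformin 1 the lowest of 7. PBS 1 and PBS 2 were each above PBS 3 in 9 of 10 genes, with Hsf1 the exception for PBS 1 and Bag3 for PBS 2, and metformin 2 was above metformin 1 in 9 of 10, with Hsf1 the exception. PBS 3 was above metformin 2 in only 4 of the 10, namely Hspa1a, Hspa1b, Dnajb1 and Bag3. The highest control was 1.18 to 2.30 times the lowest control over the members, against a median of 1.25 times over all genes tested. Of the 10 members 9 were above that median, with Hspa1b, Hsph1 and Hspa1a highest, and Hsf1 was below it. Over genes of at least 5 CPM the median was lower, at 1.165 times, and Hsf1, at 1.184 times, was above it too. With metformin the highest library was 1.04 to 2.54 times the lowest over the members, against a median of 1.29 times over genes of at least 5 CPM. Dnajb1, Bag3 and Hsf1 were below that metformin median.
The summed TPM of the 10 members was 4476, 4687 and 3305 in PBS libraries 1, 2 and 3, against 2804, 4006 and 3175 in metformin libraries 1, 2 and 3, so that PBS 3 lay below metformin 2. Each gene was set against the mean centred log2 CPM of the other 9 over the 6 libraries, as a description. Pearson's r was 0.859 to 0.953 for Hspa1a, Hspa1b, Dnajb1, Dnaja1, Hsph1 and Hspa8, 0.764 for Hsp90aa1, 0.584 for Bag3, 0.280 for Hsp90ab1 and -0.807 for Hsf1. The points share library, depth and treatment.
Outside the lists used here, 9775 protein-coding genes of at least 5 CPM were ranked by the same measure against the mean of all 10. The 5 most alike were Stk26, Cep135, Btrc, Tbl1x and Ptar1, with r from 0.989 to 0.995 over 6 libraries. The highest of 9775 correlations over 6 points are high by selection, so they are a description only. In all 5 genes the groups overlapped. Stk26, a kinase, was at 115, 110 and 99.1 CPM with PBS and 88.5, 103 and 94.3 CPM with metformin.

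**Figure D3:**
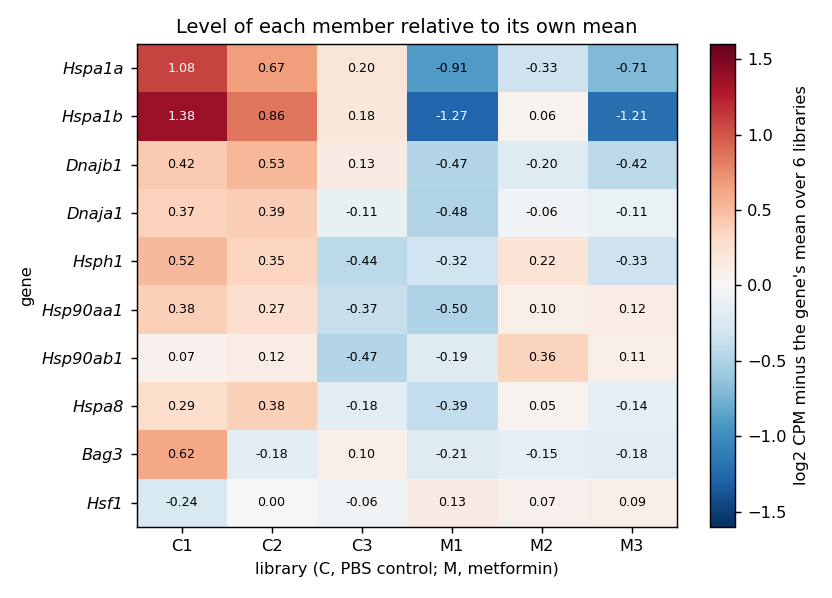
Level of each gene (rows) in each library (columns) as log2 CPM minus the gene's own mean over the 6 libraries; red is above and blue below that mean. C1 and C2 are red for most genes and M1 is blue for most, and the colours are strongest for Hspa1a and Hspa1b. C3 is mixed, and is the lowest library for Hsph1 and Hsp90ab1.

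Ratios inside a library do not depend on its depth. Hspa8 was 76.2 ± 15.8 times the sum of Hspa1a and Hspa1b in TPM with PBS and 177 ± 48.2 times with metformin (SD, n = 3 each). It was 58.2, 82.7 and 87.7 times in PBS 1, 2 and 3 and 201, 122 and 209 times in metformin 1, 2 and 3, without overlap.
The ratio of Hspa8 to Hsp90ab1 varied little within a group, at 2.96, 3.13 and 3.19 with PBS and 2.24, 2.08 and 2.01 with metformin. The means of 3.09 and 2.11 differed by more than the SD of 0.120 in each group. In TPM PBS 3 lay inside the metformin range for Hspa8 and below every metformin library for Hsp90ab1. PBS 3 stood with the other controls in this ratio.
Hsp90ab1 was 2.29 to 2.64 times Hsp90aa1 with PBS and 2.79 to 3.26 times with metformin, and Dnaja1 was 2.15 to 2.25 times Dnajb1 with PBS and 2.53 to 3.02 times with metformin. Dnajb1 was 2.67 ± 0.393 times Hsf1 with PBS and 1.42 ± 0.190 times with metformin (SD, n = 3 each). Each of these 5 ratios had a two-sided exact permutation p of 0.1, the smallest the design allows, and 0.171 adjusted over the 12 ratios and sums computed. The ratios were chosen after values were seen, so these p-values describe the separation only. The adjustment does not cover that choice. The ratio of Hspa8 to Hsph1 overlapped between the groups (21.7 to 30.3 with PBS, 22.7 to 27.9 with metformin; exact permutation p = 0.7).

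**Figure D4:**
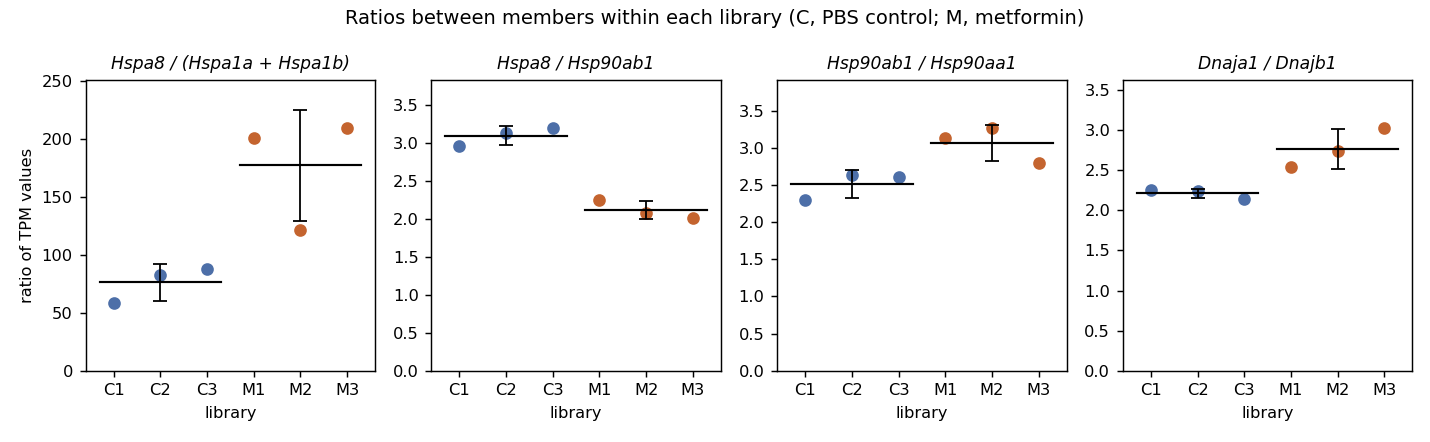
Ratios of TPM values between members (y axes, from 0) in each library (x axis; C1 to C3 PBS, M1 to M3 metformin), with group means (long bars) and SD (short bars, n = 3). In all 4 ratios the groups do not overlap, and Hspa8 over Hsp90ab1 separates 2.96 to 3.19 with PBS from 2.01 to 2.24 with metformin.

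The other genes of the pathway were taken from lists of family members and partners, and by edgeR 0 genes of any list passed over all genes. At an unadjusted p under 0.05, 5.08% of all genes were lower and 5.29% higher, and 50.9% had a log2 fold change above 0. The counts of every list below are to be read beside these shares. Of 7 other HSP70 and HSP110 genes 5 were tested, with a median log2 fold change of -0.23, and 1 was lower and 0 higher at an unadjusted p under 0.05. Hspa2, an HSP70 best known from germ cells, had means of 14.3 CPM (PBS) and 11.1 CPM (metformin), and Hspa4, an HSP110 relative, 173 and 145 CPM (log2 fold change -0.37 and -0.26). Hspa14, the ribosome-bound HSP70 with the highest mean TPM of the list, averaged 99.5 and 95.9 CPM.
Of 10 other cytosolic J proteins 10 were tested (median -0.01; 1 lower, 0 higher at an unadjusted p under 0.05). Dnajb4, the closest relative of Dnajb1, was at 63.3, 49.3 and 48.4 CPM with PBS and 33.2, 40.2 and 41.8 CPM with metformin, without overlap (log2 fold change -0.48, SE 0.14; edgeR adjusted p = 0.361). Dnaja4, a relative of Dnaja1, averaged 74.3 and 63.6 CPM with overlap, and Dnajc7, a J protein that links HSP70 and HSP90, 220 and 218 CPM.
Among 8 co-chaperones of HSP70 (8 tested, median 0.03), 0 reached an unadjusted p under 0.05 in either direction. Bag2 averaged 3.70 and 2.24 CPM, Stub1, the ubiquitin ligase CHIP, 160 and 189 CPM, and Bag1, an exchange factor, 170 and 178 CPM.

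The 14 HSP90 co-chaperones, all tested, had a median log2 fold change of 0.02, with 1 gene lower and 1 higher at an unadjusted p under 0.05. Fkbp5, a co-chaperone of steroid receptors that is itself induced by glucocorticoids, was at 280, 275 and 225 CPM with PBS and 407, 489 and 294 CPM with metformin (log2 fold change 0.61, SE 0.18; edgeR adjusted p = 0.361). Its metformin libraries were all above the controls. Ppid, the cyclophilin 40, averaged 70.3 and 55.7 CPM, without overlap (log2 fold change -0.34), and Cdc37, which brings kinases to HSP90, 258 and 252 CPM.
Of 14 subunits of the CCT chaperonin and of prefoldin, which fold actin and tubulin, 1 was lower and 3 were higher at an unadjusted p under 0.05 (median -0.08). The CCT subunit Cct6a had means of 240 CPM (PBS) and 194 CPM (metformin; log2 fold change -0.30), and Cct5, the gene of the list with the highest mean TPM, 318 and 289 CPM. The prefoldin subunit Pfdn6 had means of 29.5 and 37.5 CPM (0.35).
Small heat shock proteins, which hold unfolded proteins without ATP, were at a low level: 5 of 9 were tested, and Hspb1 lay between 0.698 and 9.20 CPM and Hspb6 between 2.21 and 4.73 CPM. Of 7 other HSF factors and regulators 4 were tested (median 0.29), and 0 reached an unadjusted p under 0.05. All 4 had a log2 fold change above 0, against 50.9% of all genes. Hsf2 (1.09 to 2.38 CPM) and Hsf4 (2.47 to 5.78 CPM) among them were at a low level. Hsbp1, which binds HSF1 trimers, averaged 82.2 and 97.2 CPM, and Hikeshi, which carries HSP70 into the nucleus, 39.1 and 45.0 CPM.

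A list of 14 further genes that HSF1 is known to induce, 9 of them also in the lists above, had a median log2 fold change of 0.01, with 7 above and 7 below 0 (3 above 0 with the gene length trend removed), and 2 lower and 0 higher at an unadjusted p under 0.05. Hspd1, the mitochondrial chaperonin HSP60, averaged 224 ± 42.4 and 167 ± 30.2 CPM (SD, n = 3 each), with overlap (log2 fold change -0.43; edgeR adjusted p = 0.473), and Ubb, a ubiquitin gene, 3350 and 3569 CPM. On the deposited TPM 4 were above and 10 below 0, and the counts were the same without metformin 3.
Of 11 mitochondrial chaperones 2 were lower and 0 higher at an unadjusted p under 0.05 (median -0.03), Hspa9, the mitochondrial HSP70 (161 and 125 CPM), and Hspd1. Chaperones of the endoplasmic reticulum (ER) were mostly on the other side of 0: 13 of 14 had a log2 fold change above 0 (10 of 14 on the deposited TPM; median 0.18), against 50.9% of all genes. At an unadjusted p under 0.05, 6 were higher and 0 lower, against 5.29% and 5.08% of all genes. The groups did not overlap, with metformin above PBS, in 7 of these 14, against 9.49%. Creld2 averaged 76.6 and 105 CPM and Sdf2l1 107 and 146 CPM (log2 fold change 0.45 and 0.44; edgeR adjusted p = 0.245 and 0.323). The difference between the lists was not tested.
Immediate early genes, which are induced with heat shock genes when cells are handled, were summed to set them beside the members. The sum over 16 genes was 2935, 2710 and 3057 CPM in PBS libraries 1, 2 and 3, against 3024, 2614 and 3042 CPM in metformin libraries 1, 2 and 3 (exact permutation p = 0.9, two-sided), and PBS 3 and metformin 3 held the highest sums. Btg2, Junb, Klf6, Ier2 and Jund made up most of the sum (means of 688, 570, 396, 358 and 268 CPM with PBS). A change in the less abundant genes of the list could therefore pass unseen in the sum. Whether handling differed between the groups was not tested. Of the 16, 1 was lower and 0 higher at an unadjusted p under 0.05, Nr4a1, a nuclear receptor of antigen receptor signalling (68.8 and 40.9 CPM; edgeR adjusted p = 0.185). Fos, next by p, averaged 70.7 and 52.5 CPM with overlap.

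**Figure D5:**
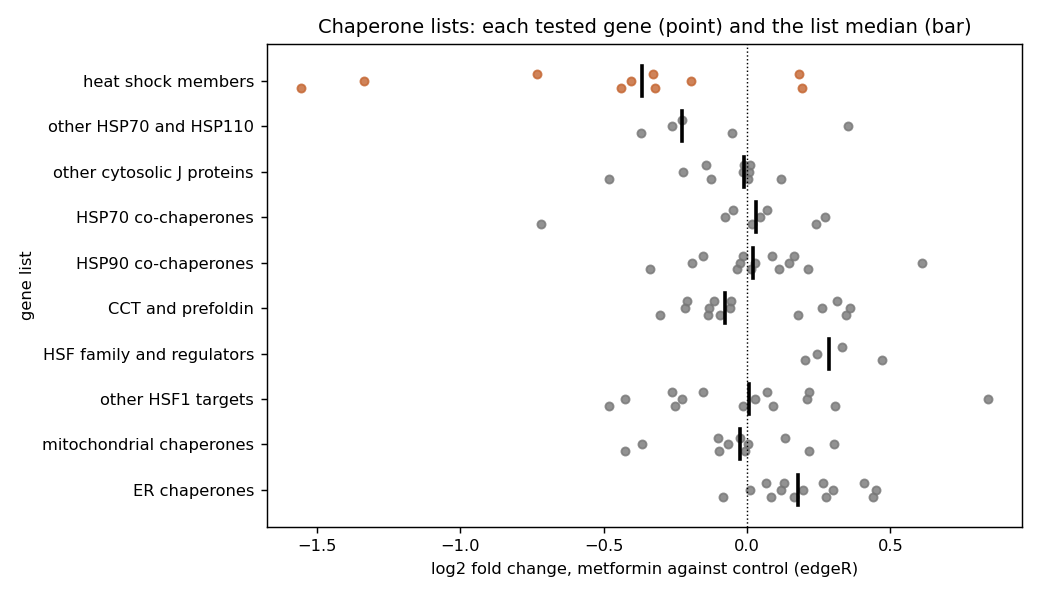
Log2 fold change, metformin against PBS (x axis), of each tested gene (points) in the 10 members and in 9 other lists (y axis), with the list median as a bar. The members' median is -0.37 with Hspa1a and Hspa1b farthest to the left, and that of the ER chaperones is 0.18.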

How the data were processed

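Per the labels' protocols, sequencing libraries were prepared from total RNA by SMART-seq mRNA chemistry. The submitters' processing notes name DRAGEN and the builds GRCm39 and mm10, without version or role. The sources used here do not give how strand, shared reads and filters were handled. For every gene and library the authors deposited an estimated count, whole for some genes and not for others and not normalized, and a TPM value, with coordinates that are printed as the table holds them. No column of values (0) was left without a sample.

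Estimated counts were rounded and tested with edgeR 4.0.16 (R 4.3.3; glmQLFit after filterByExpr and TMM scaling, without covariates) over 15527 genes, with Benjamini-Hochberg adjustment and a threshold of 0.05. SE and intervals come from this fit and cover the spread between libraries. The common biological coefficient of variation was 27.3%. DESeq2 1.42.0 and limma 3.58.1 were alternatives, and scripts were tested on simulated data. Molecular identifiers are not mentioned, so PCR copies and separate molecules may look alike. Other settings were 3 normalizations, 2 filters, log2(TPM + 1), removal of a lowess trend on gene length (span 0.3), the replicate number as a block, an adjusted p of 0.1 and each library left out.

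The members and lists were chosen with earlier results of these data known. Named from other lists were the 2 genes with the smallest p, since none passed, and, except for ER, mitochondrial and immediate early lists, the gene with the highest mean TPM. The ratios and the remaining named genes were chosen after values were seen. Promoters come from RefSeq (GRCm38.p6), whose coordinates are not those of the table. Ratios and sums were compared with exact permutation tests over 3 against 3 libraries.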

Additional observations from a re-analysis of the deposited data

How the results depend on the processing

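The sign of the log2 fold change of all 10 members was the same under every setting tried, and the members' median stayed between -0.52 (without PBS 3) and -0.22 (without PBS 1). DESeq2 called 3 of the 10 lower, 1 of 14 ER chaperones higher and 1 of 16 immediate early genes lower, where edgeR called 0, and it called the sum of Hspa1a and Hspa1b (log2 fold change -1.49, adjusted p = 0.00114). Over all genes edgeR called 0 and DESeq2 299, limma-voom with sample quality weights 36, edgeR with no filter 1, with the gene length trend removed 1, and without 1 library 0 to 1 (1 without metformin 3). On log2(TPM + 1) the median was -0.0859 for other J proteins, -0.0796 for HSP70 co-chaperones, -0.113 for HSP90 co-chaperones, 0.0530 for ER chaperones and -0.123 for immediate early genes, and the cause was not tested. The HSP70 co-chaperone median was 0.0794 with upper quartile factors, which moved the median of all genes to 0.05, and -0.0245 with the gene length trend removed. With the replicate block edgeR called 3 genes and 0 members. Same-numbered libraries deviated together at 0.171, 0.0757 and 0.172 (correlation of deviations from group means), and PBS 2 did not correlate best with its own number, so the numbers were not taken as pairs. With a filter of 5 CPM in 3 libraries Bag3 was not tested. Bag3 and Hspa1a, with 90 to 192 and 121 to 579 reads per library, are the members whose values depth limits most.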
